A study of Mus musculus with 12 samples.

Results

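The fatty acid desaturases and elongases are the enzymes that shape a fatty acid after palmitate has been made. The 10 genes described here were chosen by name as Scd1, Scd2, Scd3, Fads1, Fads2, Fads3, Elovl1, Elovl3, Elovl5 and Elovl6, and each matched 1 row of the 35583 rows that carry a single gene name, in a table of 39248 rows. They were measured by RNA sequencing in adipocytes made from the mouse line 3T3-L1, whose fibroblast-like cells store fat once they are differentiated in culture. Cells were electroporated on day 2 after differentiation with 0.75 nmol of siRNA, and no animals, transgenes or other agents are named in the labels. The control arm had 6 libraries with a control siRNA. The knockdown arm had 6 libraries with an siRNA against Zfp407, a zinc finger protein (3 with each of 2 siRNAs). The columns of the knockdown libraries are numbered 1 to 6 without naming the siRNA, so they were compared as 1 arm. Nothing in the labels says that the libraries of an arm came from separate cultures, so the p-values measure the spread between these samples of 1 cell line, which may be technical. The spread within the knockdown arm also includes any difference between the 2 siRNAs.

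Desaturases put double bonds into fatty acyl chains, and elongases add carbon units to them. Stearoyl-CoA desaturases (the Scd genes) make oleate and palmitoleate from saturated acyl-CoA and are highly expressed in fat cells. Fads2 and Fads1 carry out successive desaturation steps in the synthesis of polyunsaturated fatty acids, with an Elovl5 elongation between them, while Elovl6 lengthens palmitate and other saturated and monounsaturated chains. Many of these genes are known targets of the transcription factors SREBP1 and LXR.

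Levels are in FPKM, a fragment count divided by transcript length and library size, which allows comparison between genes. Zfp407 itself ranged over 2.70 to 3.16 FPKM in the control arm and 1.60 to 2.13 FPKM in the knockdown arm, whose mean was 36.9% lower. The FPKM of a library summed to between 2772930 and 3748490, and read depth is unknown. Knockdown library 6 stood apart with a mitochondrial share of summed FPKM of 32.8%, against at most 26.3% in the others. Adipocyte markers were abundant in every library, with summed levels of 20258 to 24521 FPKM in the control and 18417 to 23379 FPKM in the knockdown arm. Of the 10, 5 fell and 0 rose by limma, and 2 were higher at an unadjusted p under 0.05. With each library centred on its median, 4 fell and 1 rose. Without knockdown library 6 the counts were 4 lower and 2 higher, and without knockdown library 4 they were 6 and 1. Preadipocyte markers were also present, at 918 to 1081 and 911 to 1187 FPKM, most of it Dlk1, whose row carries the authors' FAIL status, and limma called 0 of 9 tested genes (0 at an unadjusted p under 0.05, and 1 higher after centring). All tested markers of both lists were above 0 in every library. Over the whole table, 3648 of 14706 tested rows were lower after knockdown (24.8%) and 1712 higher (11.6%), 36.4% in either direction. With each library centred on its median the split was 3146 lower and 2307 higher. The worth of 1 read, estimated in low rows, differed between the arms in 162 of 491 rows (32.99%) by over 0.01 (log2), with a 90th percentile of 0.232, and in 0 of 88 and 2 of 98 rows between odd and even libraries within the arms. Changes of about that size or less in a single row cannot be told apart from this term of the authors' estimates. The worth of 1 read was not estimated for the tested rows, which have higher means.

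The promoters of members that fell and of one that was not called are shown first, since the 3 Fads genes neighbour each other and moved the same way. RefSeq entries of build GRCm38.p6 matched 6 of the 10 members by symbol. Scd1, Scd2, Fads1 and Elovl3 had no entry, so their promoters were not searched. Each sequence below is the 250 bases before an annotated start, 5′ to 3′ on the gene's own strand. Matches to the motifs listed after the sequences are in capitals. The Fads2 window is chr19:10101504-10101753 on the minus strand, that of Fads3 chr19:10041298-10041547 on the plus strand, and that of Elovl5 chr9:77917115-77917364 on the plus strand.
Fads2: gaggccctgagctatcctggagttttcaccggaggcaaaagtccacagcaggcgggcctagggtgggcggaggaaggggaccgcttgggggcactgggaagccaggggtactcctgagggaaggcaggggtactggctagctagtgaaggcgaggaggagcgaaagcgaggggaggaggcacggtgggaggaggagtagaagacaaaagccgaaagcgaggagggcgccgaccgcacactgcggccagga
Fads3: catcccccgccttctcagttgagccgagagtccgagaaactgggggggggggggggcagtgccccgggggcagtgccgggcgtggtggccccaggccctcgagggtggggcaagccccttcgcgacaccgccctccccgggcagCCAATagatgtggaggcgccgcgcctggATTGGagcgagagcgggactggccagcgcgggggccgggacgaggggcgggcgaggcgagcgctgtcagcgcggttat
Elovl5: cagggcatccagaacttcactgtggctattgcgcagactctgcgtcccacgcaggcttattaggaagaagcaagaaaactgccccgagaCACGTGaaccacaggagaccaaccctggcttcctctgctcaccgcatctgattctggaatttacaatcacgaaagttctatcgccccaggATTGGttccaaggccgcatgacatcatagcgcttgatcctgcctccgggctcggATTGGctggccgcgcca

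5 motifs were searched on both strands: the sterol response element core TCACNCCAC, the NF-Y box CCAAT, the E-box CACGTG, and the nuclear receptor direct repeats DR1 and DR4, of which the sterol element and the repeats matched in 0 of the 7 member windows (6 genes), the NF-Y box in 3 and the E-box in 1. Fads3, which fell, holds NF-Y boxes that begin 106 and 78 bases before the start used here, and they do not overlap. That window lies inside the RefSeq gene, which begins at chr19:10040855, and partly inside the measured row, which begins at chr19:10041456. The Fads2 window likewise lies inside its measured row, which ends at chr19:10101907. These windows are thus not upstream of every possible start. Elovl5, which was not called, holds NF-Y boxes that begin 71 and 17 bases before its start and an E-box that begins 161 bases before it. The Fads2 window holds none of these letters, and of the members that fell only Fads2 and Fads3 had a window. NF-Y boxes occur in 33.8% of all 32851 windows of this length, E-boxes in 6.02% and the sterol element core in 1.05%, and the repeats in 0.0335% and 0.0152%. These matches are letters in a short window and say nothing on binding.

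Of the 6 desaturase transcripts 5 fell in the knockdown arm, while Scd3 and the 3 tested elongases did not pass the test. Of the 9 members with a mean of at least 1 FPKM, 5 fell, 0 rose and 4 did not pass, where 24.8% of all tested rows fell, and none of the 9 was higher at an unadjusted p under 0.05. The 5 were Scd1, Scd2, Fads1, Fads2 and Fads3, and for each the highest knockdown value was below the lowest control value. Against a minimum fold of 1.2, Scd1, Fads1 and Fads2 passed, 3 of 9, beside 3.69% of all rows. In bulk RNA, fewer differentiated cells and less RNA per cell cannot be told apart. Over all tested rows, the arms did not overlap with lower knockdown values in 13.9%. The median log2 fold change of the 9 members was −0.30, beside −0.05 over all tested rows. Calls are from limma on log2(FPKM + 1), adjusted over all tested rows (Benjamini-Hochberg, threshold 0.05), and fold changes are on that scale.

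**Figure D1:**
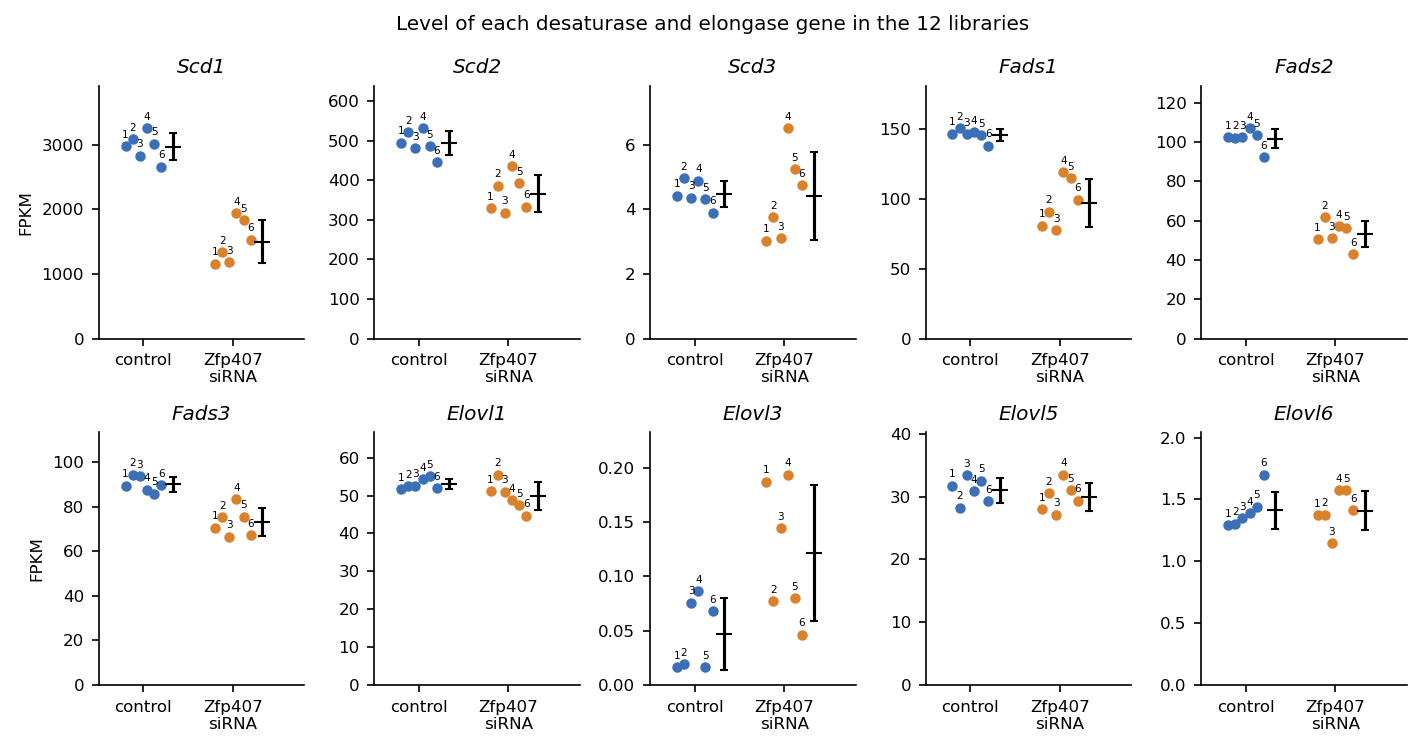
Level in FPKM (vertical axes from 0, a scale of its own for each gene) of the 10 genes in 6 control (blue) and 6 Zfp407 siRNA libraries (orange), numbered as in the table, with the mean and SD in black. The arms are separate for Scd1, Scd2, Fads1, Fads2 and Fads3 and overlap for the other genes.

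Scd1, the main stearoyl-CoA desaturase of adipocytes, had the highest level of the 10 genes and had a mean 49.6% lower in the knockdown arm. Its row (XLOC_016875) lies at chr19:44394074-44408687 on GRCm38. In the control arm it ranked 8 of 17510 protein-coding symbols by mean FPKM. Its level was 2978, 3084, 2832, 3259, 3019.7 and 2660.3 FPKM in control libraries 1 to 6. It was 1159, 1334, 1187, 1943, 1838 and 1532 FPKM in knockdown libraries 1 to 6. The lowest control library was thus well above the highest knockdown library, and knockdown libraries 4, 5 and 6 were higher than 1, 2 and 3. The means were 2972 ± 207 and 1499 ± 332 FPKM (SD, n = 6 each), a log2 fold change of −1.01 with an SE of 0.13 (limma adjusted p = 8.6e-05, lower in 6 of 6 libraries). In the authors' deposited table its log2 fold change was −0.99 with a q-value of 0.0890, not marked significant.

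Scd2, a second stearoyl-CoA desaturase, fell less (XLOC_016394, chr19:44270047-44306864). Its level was 494, 521, 481, 531, 487 and 445 FPKM in the control libraries. It was 329, 386, 318, 436, 392 and 333 FPKM in knockdown libraries 1 to 6, so that the highest knockdown library came close to the lowest control library without reaching it. The means were 493 ± 30.9 and 366 ± 46.4 FPKM (SD, n = 6 per arm; log2 fold change −0.44, SE 0.08, limma adjusted p = 0.00115). It was not past a minimum fold of 1.2 (limma treat adjusted p = 0.250), and the authors' deposited table gives a q-value of 0.736. The Scd2 row shares its locus with 2 rows named AC123853.1.

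Scd3, a desaturase gene close in sequence to Scd1, was low and did not pass (XLOC_016393, chr19:44203288-44244016). Its level was 4.43, 4.96, 4.37, 4.89, 4.32 and 3.90 FPKM in the control libraries. It was 3.04, 3.75, 3.12, 6.52, 5.26 and 4.74 FPKM in knockdown libraries 1 to 6. Knockdown libraries 1, 2 and 3 thus lay below every control library and libraries 4 and 5 above every one, and the arm means of 4.48 ± 0.395 and 4.40 ± 1.36 FPKM (SD, n = 6 each) hide that spread. The log2 fold change was −0.05 (95% interval −0.36 to 0.25, limma adjusted p = 0.791). The Scd genes are close paralogs, and no source used here says how the authors' estimation divided reads between them, so the low values of Scd3 beside Scd1 are uncertain. Scd4, another neighbour at a low level, went down from 1.53 ± 0.160 to 1.01 ± 0.124 FPKM (SD, n = 6 per arm; log2 fold change −0.33, limma adjusted p = 0.00175), which was not past a minimum fold of 1.2. At this level the log2(FPKM + 1) scale understates a change, so missing that fold does not show that the change was small.

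Within the Scd genes the makeup shifted, since Scd1 fell more than Scd2. The Scd2 to Scd1 ratio was between 0.161 and 0.170 in the control and between 0.214 and 0.289 in the knockdown libraries, with no overlap. The log2 ratio rose by 0.58 (exact permutation p = 0.00216, two-sided, the smallest that 6 against 6 allows, and 0.00433 adjusted over the 4 ratios computed). A ratio within a library does not change with the scaling of that library. Scd1 was still 4.10 times Scd2 in the knockdown arm, against 6.03 times in the control arm.

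Fads2, the delta-6 desaturase at the entry to polyunsaturated fatty acid synthesis, had the smallest adjusted p of the 10 genes. Its row (XLOC_016630) lies at chr19:10062675-10101907. Its level was 103, 102, 103, 107, 104 and 92.4 FPKM in control libraries 1 to 6. It was 50.6, 61.7, 51.1, 57.1, 56.3 and 42.9 FPKM in knockdown libraries 1 to 6. The arms were far apart, and the lowest value of each was in its library 6. The means were 102 ± 4.92 and 53.3 ± 6.56 FPKM (SD, n = 6 per arm; log2 fold change −0.93, SE 0.08, limma adjusted p = 2.4e-06), a mean 47.6% lower. Fads2 is marked significant in the authors' deposited table (q-value 7.2e-05).

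Fads1, the delta-5 desaturase that acts later in the same route, also fell (XLOC_016165, chr19:10182888-10196870). Its level was 147, 151, 146, 148, 146 and 138 FPKM in the control libraries. It was 80.8, 90.9, 77.6, 119, 115 and 99.6 FPKM in knockdown libraries 1 to 6, again with libraries 4, 5 and 6 above 1, 2 and 3. The means were 146 ± 4.16 and 97.2 ± 17.3 FPKM (SD, n = 6 per arm; log2 fold change −0.60, SE 0.10, limma adjusted p = 0.000568). Fads1 passed against a minimum fold of 1.2 (limma treat adjusted p = 0.0444) and is marked significant in the authors' deposited table (q-value 0.00401).

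Fads2 fell more than Fads1, mostly in knockdown libraries 4 to 6. Against the control mean, the log2 changes in knockdown libraries 1 to 3 were −0.84, −0.68 and −0.90 for Fads1. For Fads2 they were −0.99, −0.71 and −0.98. In libraries 4 to 6 they were −0.29, −0.34 and −0.55 for Fads1 and −0.82, −0.84 and −1.23 for Fads2. The Fads1 to Fads2 ratio had a range of 1.38 to 1.50 in the control and 1.47 to 2.32 in the knockdown libraries, which overlap slightly. The log2 ratio rose by 0.34 (exact permutation p = 0.00649, two-sided, and 0.00866 adjusted over the 4 ratios). Fads3, known to act on sphingoid bases, fell least of the 3 (XLOC_016163, chr19:10041456-10060461). Its level was 89.4, 94.4, 93.6, 87.6, 85.9 and 89.7 FPKM in the control and 70.5, 75.4, 66.6, 83.3, 75.6 and 67.2 FPKM in the knockdown libraries. Knockdown library 4 came within a few FPKM of the lowest control library, and the means were 90.1 ± 3.32 and 73.1 ± 6.30 FPKM (SD, n = 6 per arm; log2 fold change −0.30, SE 0.05, limma adjusted p = 0.00106). Fads3 was not past a minimum fold of 1.2 (limma treat adjusted p = 1), and its q-value in the authors' deposited table is 1.00.

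The order of the levels changed between the arms at Fads2. In the control arm the order from high to low was Scd1, Scd2, Fads1, Fads2, Fads3, Elovl1, Elovl5, Scd3, Elovl6 and Elovl3, and the ranges of neighbours overlapped for Fads2 and Fads3. Fads2 was above Fads3 in 6 of 6 control libraries and below it in 6 of 6 knockdown libraries. In the knockdown arm Fads2 stood next to Elovl1, which it exceeded in 4 of 6 libraries, and the ranges of Fads2 and Elovl1 overlapped, as did those of Fads1 and Fads3.

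The 3 elongases that were tested did not pass, and their 95% intervals lay between −0.19 and 0.14 on the log2 scale. Elovl1, which lengthens saturated and monounsaturated very long chains, had 51.6, 52.5, 52.6, 54.3, 55.1 and 51.9 FPKM in the control and 51.2, 55.5, 51.1, 48.8, 47.5 and 44.7 FPKM in the knockdown libraries. Knockdown library 2 was above every control library and the other 5 below every one. The log2 fold change of Elovl1 was −0.09 (95% interval −0.19 to 0.01, limma adjusted p = 0.153). Without knockdown library 2 it was −0.12 and passed (limma adjusted p = 0.0365). Its row (XLOC_023293, chr4:118428093-118437393) shares its locus with Cdc20.

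Elovl5, the elongase between the Fads2 and Fads1 steps, had 31.7, 28.2, 33.4, 30.8, 32.5 and 29.3 FPKM in the control and 28.0, 30.6, 27.1, 33.5, 31.0 and 29.3 FPKM in the knockdown libraries (XLOC_034875, chr9:77917364-77984523). The arms overlapped over most of their range. The log2 fold change was −0.05 (95% interval −0.17 to 0.07, limma adjusted p = 0.516), so the interval does not reach the fall of Fads1 or Fads2. Elovl6, the elongase of palmitate, was close to the lowest level tested (XLOC_021376, chr3:129532386-129638495). It had 1.29, 1.31, 1.35, 1.39, 1.44 and 1.70 FPKM in the control and 1.37, 1.38, 1.15, 1.58, 1.58 and 1.41 FPKM in the knockdown libraries, with the arms overlapping. Its log2 fold change was −0.00 (95% interval −0.14 to 0.14, limma adjusted p = 0.984), and at this level the scale understates a change.

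Elovl6 and Scd1 act on neighbouring steps of the route from palmitate to oleate, and their transcripts changed by unequal amounts. The Elovl6 to Scd1 ratio rose by 1.01 on the log2 scale in the knockdown arm (exact permutation p = 0.00216, two-sided, and 0.00433 adjusted over the 4 ratios), with no overlap between the arms. The Elovl5 to Elovl6 ratio had means of 22.0 and 21.3 in the control and knockdown arm and a log2 difference of −0.05 (exact permutation p = 0.613, two-sided), and of −0.12 without control library 6 (exact permutation p = 0.0693). Whether the smaller changes of Fads3 and Scd2 differ from those of the elongases was not tested.

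Elovl3, an elongase known from brown and cold-exposed fat, was barely detected and not tested with the others. Its level was 0.0167, 0.0189, 0.0757, 0.0865, 0.0164 and 0.0682 FPKM in the control and 0.187, 0.0772, 0.144, 0.194, 0.0803 and 0.0464 FPKM in the knockdown libraries, which overlap. The difference on the log2(FPKM + 1) scale was 0.10 (exact permutation p = 0.0303, two-sided, not adjusted). With a pseudocount of 0.1 the difference was 0.57 with the same p, so its size on this scale depends on the pseudocount. With no filter on low values the limma adjusted p was 0.0772. Without control library 1, 2 or 5 or without knockdown library 1 or 4 the exact permutation p lay between 0.0541 and 0.0606. Its row (XLOC_016416, chr19:46131897-46148375) shares its locus with Pitx3.

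**Figure D2:**
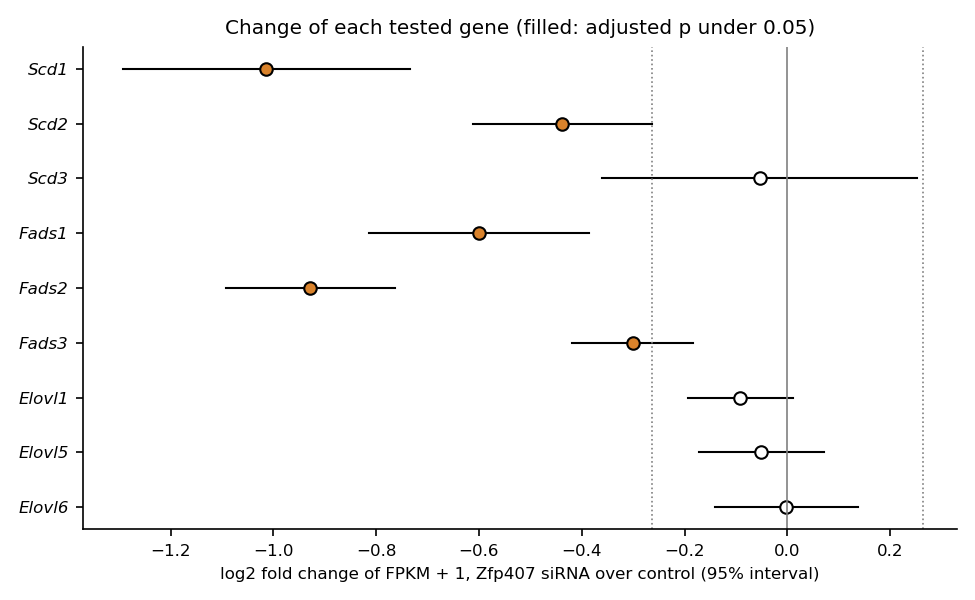
Log2 fold change of FPKM + 1 (horizontal axis, Zfp407 siRNA over control) of the 9 tested genes with 95% intervals, filled where the adjusted p is under 0.05, with dotted lines at a fold of 1.2 in each direction. Scd1 and Fads2 lie near −1.01 and −0.93, and the intervals of Scd3, Elovl1, Elovl5 and Elovl6 include 0.

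The knockdown libraries did not fall evenly. Libraries 4, 5 and 6 were the 3 highest knockdown libraries for Scd1, Scd3, Fads1 and Elovl6, while libraries 2, 4 and 5 were the 3 highest for Scd2, Fads2, Fads3 and Elovl5. Elovl1 had the opposite order to the first group, with libraries 1, 2 and 3 highest, and Elovl3 was highest in 1, 3 and 4. Zfp407 was higher in libraries 1 to 3 than in 4 to 6, with 2.13, 1.93 and 1.79 FPKM in knockdown libraries 1 to 3 and 1.65, 1.60 and 1.62 FPKM in libraries 4 to 6. Over the 12 libraries, each centred on its arm mean, Pearson's r with Scd1 was 0.98 for Scd3, 0.97 for Fads1, 0.29 for Fads2 and −0.42 for Elovl1. These are descriptions over 12 points that share library scaling, and the siRNA of a column is not given.

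**Figure D3:**
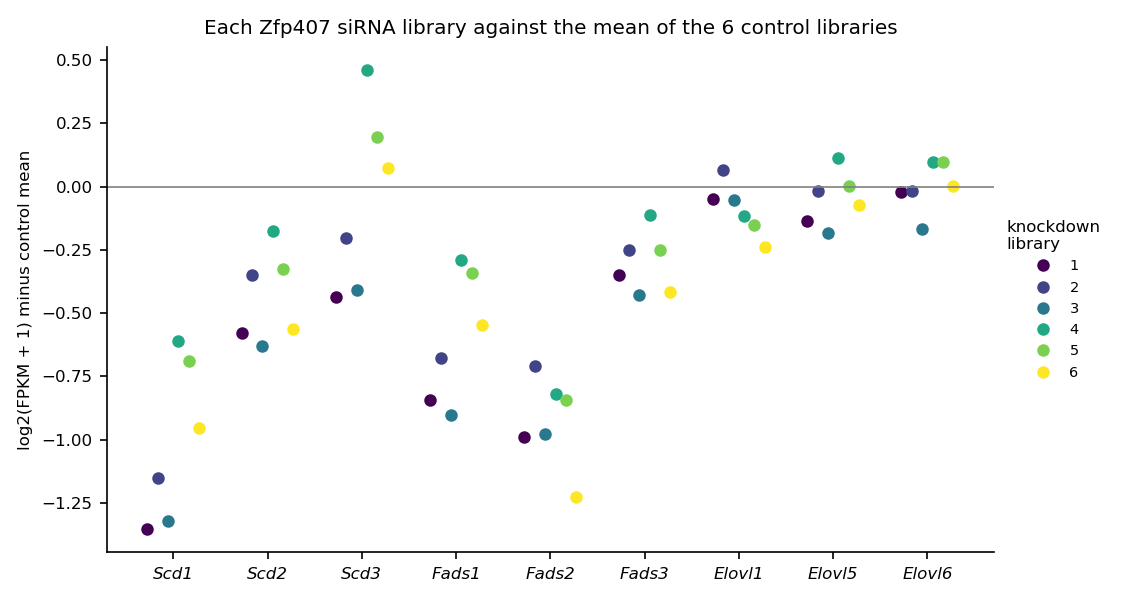
Log2(FPKM + 1) of each of the 6 knockdown libraries (colour) minus the mean of the 6 control libraries, for the 9 tested genes. All 6 points are below 0 for the 5 genes that fell, and libraries 4, 5 and 6 lie above 1, 2 and 3 for Scd1, Scd3 and Fads1.

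The rows beside the Fads cluster were few, and no tested gene among them passed as lower. The neighbours were looked up after the values of the Fads and Scd genes were seen. The 3 Fads rows span 155 kb of chromosome 19, with 2.21 kb between the Fads3 and Fads2 rows and 81.0 kb between those of Fads2 and Fads1. Of the 5 other tested rows with a gene name within 100 kb, 0 fell, where 24.8% of all tested rows fell. A count of 0 in 5 rows is too small to set the neighbours apart from that share. Fen1, a flap endonuclease of DNA replication, rose from 4.83 to 6.11 FPKM (log2 fold change 0.29, limma adjusted p = 0.00243), and 1810006K21Rik, at the same locus as Fen1, had a log2 fold change of −0.03 (limma adjusted p = 0.647). Fth1, the ferritin heavy chain, had 4418 and 4458 FPKM in the control and knockdown arm (log2 fold change 0.01, and −0.10 after quantile normalization). Rab3il1 and Dagla had log2 fold changes of 0.12 and 0.04, and Rab3il1 was called higher after centring and after quantile normalization.

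Beside the Scd genes, which span 205 kb of the same chromosome, 4 tested rows of other gene families lie within 100 kb. All 4 rose, also with centring and with quantile normalization, where 11.6% of all tested rows were higher. Cwf19l1 and SNORA12 among them have the same coordinates, so the 4 rows are not separate places. Bloc1s2, a subunit of lysosome-related organelle complexes, had a log2 fold change of 0.28 (limma adjusted p = 0.00902), Chuk, a kinase of the NF-kappa-B route, 0.20 (0.0223) and Cwf19l1 0.14 (0.0170), with limma adjusted p-values in brackets. The changes of Chuk and Cwf19l1 are no larger than the 90th percentile of the difference in the worth of 1 read, estimated in low rows. SNORA12, a small nucleolar RNA at the locus of Cwf19l1, had a log2 fold change of 2.06 (0.00687) and was the one of the 4 past a minimum fold of 1.2. Its mean went from 1.09 FPKM, close to the lowest level tested, to 6.64 FPKM, and its 95% interval was wide (0.97 to 3.14).

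**Figure D4:**
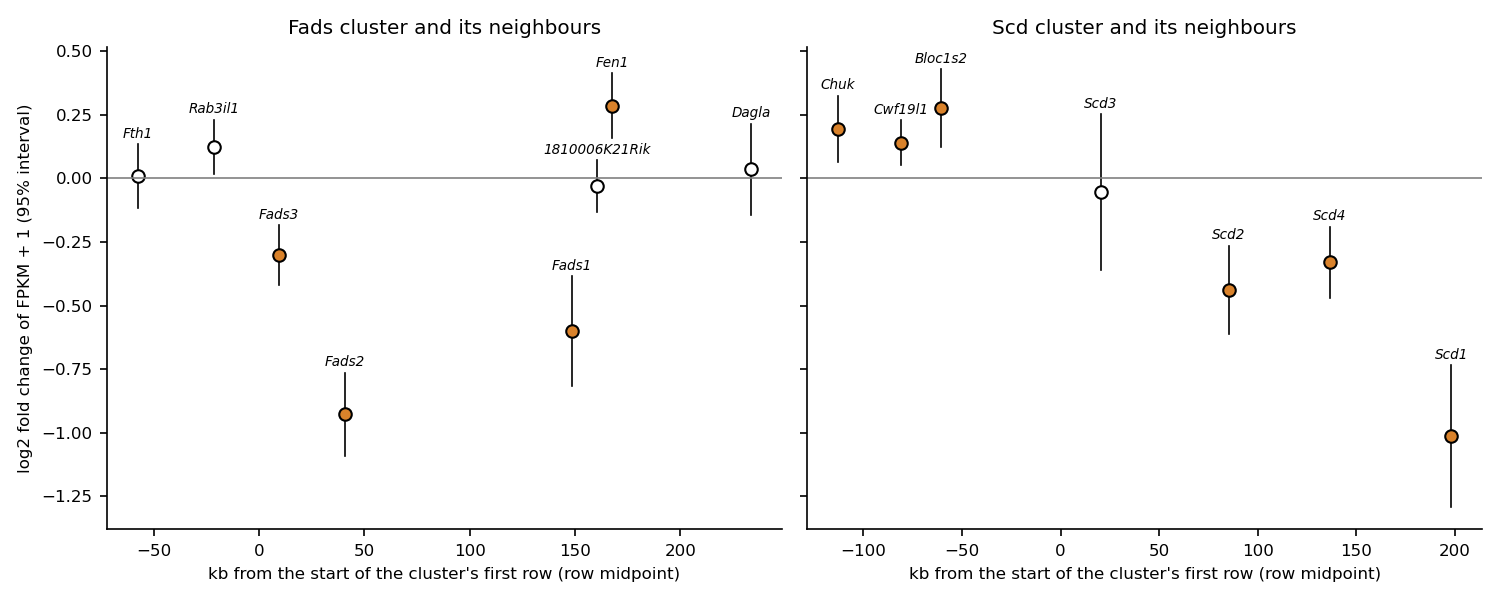
Log2 fold change of FPKM + 1 with 95% intervals (vertical axis) of tested rows within 100 kb of the Fads and Scd clusters, by distance in kb from the first row of the cluster, filled where the adjusted p is under 0.05. SNORA12 (2.06) is left out of the picture, Fen1 and 1810006K21Rik are set apart by a few kb so that both can be seen, and the genes below 0 with filled points are Fads and Scd genes.

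Partner enzymes of elongation fell, while the elongases did not pass; the difference was not tested. The elongation cycle needs a reductase, a dehydratase and a final enoyl reductase besides the elongase. Of the 6 tested genes for these steps, 6 fell, beside 24.8% of all tested rows (median log2 fold change −0.26, against −0.05 for all tested rows). With each library centred on its median 5 of them fell, and 1 did against a minimum fold of 1.2, beside 3.69% of all rows. Tecr, the trans-enoyl reductase of the last step, went down from 141 ± 4.12 to 91.7 ± 6.45 FPKM (SD, n = 6 per arm; log2 fold change −0.61, limma adjusted p = 1.3e-06). The dehydratase genes Ptplb and Ptpla had log2 fold changes of −0.34 and −0.38 and Hsd17b12, the ketoacyl reductase, −0.18, all called. In the authors' deposited table the q-values are 0.00358 for Tecr, 0.379 for Ptplb and 0.462 for Ptpla. They are 0.99999 for Hsd17b12, Ptplad1 and Ptplad2. Counted among the 6 are Ptplad1 (−0.12) and Ptplad2 (−0.19). Their changes and that of Hsd17b12 are no larger than the 90th percentile of the difference in the worth of 1 read in low rows.

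Desaturases take electrons from cytochrome b5 and its reductases. Of 6 tested genes listed for this supply, limma called 3 lower and 0 higher (4 and 0 at an unadjusted p under 0.05, and 3 and 1 after centring). The list also holds Por and Cyb5b, so the count is not limited to the cytochrome b5 of the desaturases and its reductases. Over all tested rows 24.8% were lower and 11.6% higher. Cyb5b, the outer mitochondrial membrane form of cytochrome b5, went down from 96.1 ± 3.84 to 51.6 ± 3.30 FPKM (SD, n = 6 per arm; log2 fold change −0.89, limma adjusted p = 4.4e-08). Cyb5, the microsomal form that serves the desaturases, named here after its value was seen, had 544 and 480.04 FPKM (log2 fold change −0.19, limma adjusted p = 0.0870). The reductase genes Cyb5r3 and Cyb5r4 fell with log2 fold changes of −0.21 and −0.27, neither past a minimum fold of 1.2. That of Cyb5r3 is no larger than the 90th percentile of the difference in the worth of 1 read, estimated in low rows.

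Upstream, in de novo synthesis, 8 of 10 tested genes fell and 0 rose (median log2 fold change −0.50), where 24.8% of all tested rows fell. Acaca, among the 8, has a row with the authors' FAIL status. Thrsp, a lipogenic regulator protein, went down from 121 ± 12.2 to 63.6 ± 13.7 FPKM (SD, n = 6 per arm; log2 fold change −0.94). The log2 fold changes of Acss2 and Acly, sources of cytosolic acetyl-CoA, were −0.83 and −0.57, and that of Slc25a1, the mitochondrial citrate carrier, was −0.65. Against a minimum fold of 1.2, 4 of the 10 passed, beside 3.69% of all rows. In the authors' deposited table the q-values are 1.5e-09 for Thrsp, 0.705 for Acss2, 0.593 for Acly and 0.0321 for Slc25a1.

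Calls among the regulators were about as frequent as in the whole table, where 24.8% of rows were lower and 11.6% higher. Of 19 tested genes of SREBP, LXR, ChREBP and PPAR control, 5 fell, 3 rose and 11 did not pass, and the counts were 3 lower and 4 higher after quantile normalization. These counts rest on single libraries: 3 fell without control library 1 or 5 or knockdown library 1 or 3, and 1 rose without control library 2 or knockdown library 1 or 3. Insig1, which holds SREBP in the endoplasmic reticulum and is itself an SREBP target, went down from 276 ± 21.8 to 157 ± 26.8 FPKM (SD, n = 6 per arm; log2 fold change −0.82, limma adjusted p = 8.2e-05). Nr1h3, LXR alpha, fell with a log2 fold change of −0.66, and Insig2 with −0.31. Nr1h2, LXR beta, rose with a log2 fold change of 0.18. Srebf1, chosen after its value was seen, had 187 and 219 FPKM in the control and knockdown arm (log2 fold change 0.23, limma adjusted p = 0.0455), and its transcript level does not give the amount of cleaved protein. None of Insig2, Nr1h2 and Srebf1 was past a minimum fold of 1.2. The changes of Nr1h2 and Srebf1 are no larger than the 90th percentile of the difference in the worth of 1 read, estimated in low rows. In the authors' deposited table the q-value is 1.6e-05 for Insig1 and 0.99999 for Nr1h3, Insig2, Nr1h2 and Srebf1.

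**Figure D5:**
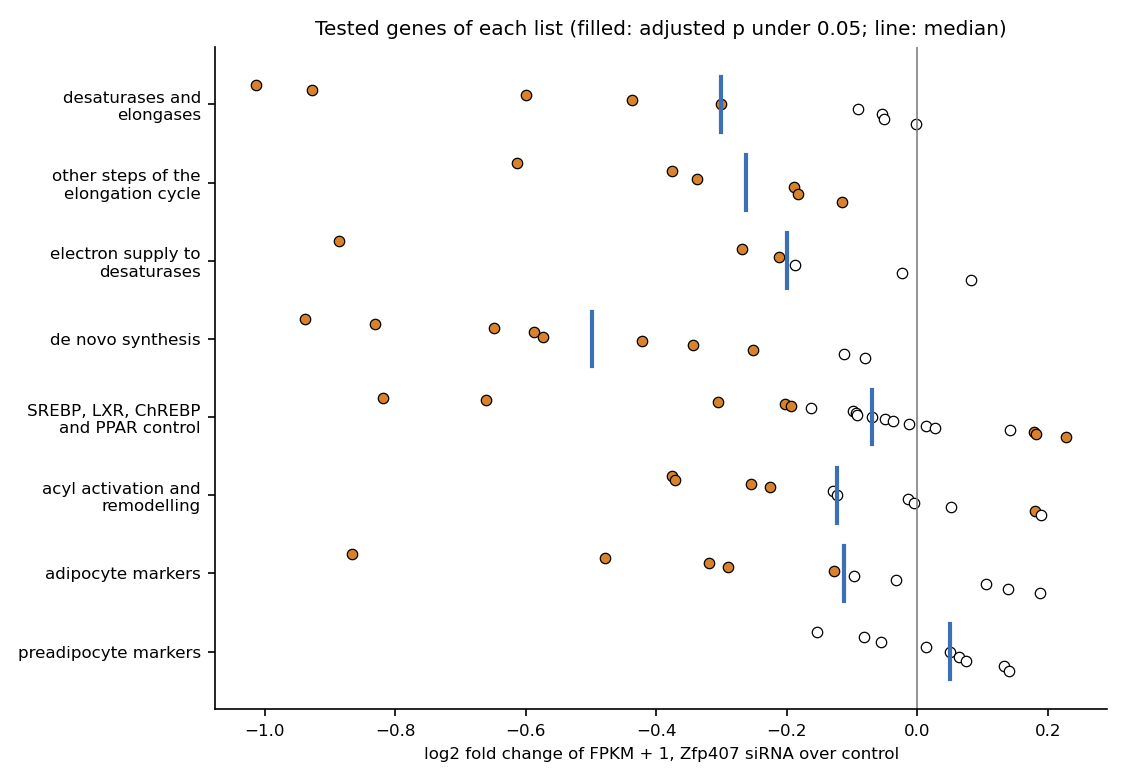
Log2 fold change of FPKM + 1 (horizontal axis) of the tested genes of each list, filled where the adjusted p is under 0.05, with the list's median as a blue line. The points of the 6 elongation cycle genes are all below 0, those of the preadipocyte markers are all open, and the regulator genes lie on both sides of 0.

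Some adipocyte markers fell as well. Among adipocyte markers, Pnpla2 (log2 fold change −0.87), Cd36 (−0.48), Cfd (−0.32) and Adipoq (−0.29) were the 4 falls with the smallest adjusted p, while Fabp4 and Plin1, chosen after their values were seen, had −0.03 and −0.10 and did not pass. Lipe, Retn and Lpl, also chosen after their values were seen, had log2 fold changes of 0.19, 0.14 and 0.10 and did not pass. The part of these markers in the desaturase falls was not tested. Without knockdown library 6, the log2 fold changes of Scd1, Fads2 and Fads1 were −1.03, −0.87 and −0.61.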

How the data were processed

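RNA-seq libraries of 3T3-L1 adipocytes, 6 with control and 6 with Zfp407 siRNA, were given as 1 table. FPKM per library were made by the authors before deposit, and per the file headers the table adds their log2 fold change, p-value and q-value of the comparison and an FPKM for each arm. Cufflinks 2.0.2 and TopHat2 2.0.5 appear in the submitters' processing notes, as do SAMtools 0.1.18.0 and Bowtie2 2.0.0.7. The sources used here do not give the build, annotation, strand setting or order of steps. Row starts lie 1 base before RefSeq starts on GRCm38 for Elovl6, Scd3 and Elovl3, so positions are given on that build, counted from 1.

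Of all rows, the 14706 whose mean reached 1 FPKM were tested on log2(FPKM + 1), two-sided. The test was limma's moderated linear model with a mean-variance trend (version 3.58.1, R 4.3.3), with Benjamini-Hochberg adjustment at 0.05. The script was tested on simulated data. Exact permutation tests used all 924 divisions of 6 and 6. The worth of 1 read was taken from rows with a mean under 0.5 FPKM whose values were whole multiples within 2%, leaving out differences of 0.5 or more on the log2 scale. From each gene list up to 4 called genes with the smallest adjusted p were named, and the 5 rows most like the member with the smallest adjusted p. The members and lists were chosen with earlier results of these data known. Alternatives were the pseudocount, the filter, centring, quantile normalization, no trend, a minimum fold of 1.2 (treat) and each library left out. Summing several rows of a member was planned and not run, as each has 1 row. The 66 library pairs held 0 identical columns.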

Additional observations from a re-analysis of the deposited data

Results flagged for a closer look

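In control library 6, Fads2 was at 92.4 FPKM, farther below the other control libraries than they are from each other, and Elovl6 was at 1.70 FPKM, above the other 5. Without that library the log2 fold change of Fads2 was −0.96 and that of Elovl6 0.03. The 6 libraries of each arm were checked for 10 genes, 20 groups in all, and chance marks about 1 in 20. Control library 6 also had the highest summed FPKM, 3748490, and its part in these values was not tested.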

How the results depend on the processing

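The 5 falls kept their direction and their side of the threshold under a pseudocount of 0.1, no filter, a filter at a mean of 5 FPKM (where Scd3 and Elovl6 were not tested), centring, quantile normalization, no trend and each library left out. Against a minimum fold of 1.2 the number of members called dropped to 3, with Scd2 (log2 fold change −0.44) and Fads3 (−0.30) no longer past it, and all rows to 543 lower and 313 higher. Elovl6 changed sign with centring (0.0317). Leaving out each library in turn gave ranges of −1.09 to −0.95 for Scd1, −0.49 to −0.40 for Scd2, −0.66 to −0.54 for Fads1, −0.97 to −0.87 for Fads2, −0.34 to −0.28 for Fads3, −0.16 to 0.0229 for Scd3, −0.12 to −0.0612 for Elovl1, −0.0826 to −0.0236 for Elovl5, −0.0217 to 0.0312 for Elovl6 and 0.0795 to 0.12 for Elovl3. The Elovl5 to Elovl6 log2 ratio ranged over −0.1191 to −0.0134. With a pseudocount of 0.1 the Elovl3 difference was 0.57. With each library left out in turn the members called lower numbered 5 to 6, the sixth being Elovl1 without knockdown library 2. The causes of these shifts were not tested. No paired analysis was possible because the numbers of the knockdown columns are tied to no sample label. Read totals were not given, and how small a change of Elovl3 or Elovl6 could be detected at these levels was not tested.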

Other observations

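Of 11 tested genes that activate fatty acids or place them in phospholipids, 4 fell and 1 rose, beside 24.8% lower and 11.6% higher over all tested rows. Lpcat3, which puts polyunsaturated chains into phospholipids, went down from 213 ± 15.9 to 164 ± 11.4 FPKM (SD, n = 6 per arm; log2 fold change −0.37, limma adjusted p = 0.000555). Pla2g6, a calcium-independent phospholipase, and Acsl5, an acyl-CoA synthetase, fell with log2 fold changes of −0.38 and −0.25. Acsl1, the main acyl-CoA synthetase of adipocytes, rose from 875 ± 28.2 to 992 ± 31.8 FPKM (log2 fold change 0.18, limma adjusted p = 0.00347), a call lost after quantile normalization. None of these 5 calls held against a minimum fold of 1.2. Degs1, a sphingolipid desaturase outside the families above, fell with a log2 fold change of −0.17 (limma adjusted p = 0.0192), also lost against that fold. The changes of Acsl1 and Degs1 are no larger than the 90th percentile of the difference in the worth of 1 read, estimated in low rows.

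The rows that varied most like Fads2 within the arms were Cnnm2, Sec31a, Capn2, Zc3h7b and Atrnl1, with Pearson's r from 0.94 to 0.97 over 12 libraries centred on their arm means. Their changes between the arms were unlike that of Fads2, from −0.40 for Atrnl1 to 0.12 for Cnnm2 on the log2 scale.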
